A study of Mus musculus with 8 samples.

Results

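Metallothioneins and zinc transporters are described here through 7 genes, Mt1, Mt2, Mtf1, Slc30a1, Slc30a5, Slc39a6 and Slc39a10, taken by name from the 24081 rows of the gene count table. They were chosen by their names for a part in zinc buffering and transport and, as values, on the anti-IgM responses of these libraries, in which Mt2 rose strongly. Their anti-IgM responses are therefore given as a description. Calls that the fits over all genes made among them are counted beside the share of all genes called, and support nothing. The rule of the choice names no difference between the cell lines, and these are given with their tests. Earlier results of these data were known when the genes were chosen. All 7 genes have a row, and 6 passed the filter on low counts; Mt1 had 0 counts in all 8 libraries and was not tested.

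The cells were WEHI cultures, mouse B lymphocytes labelled as immature, in a line carrying miR-148a, a microRNA, and in a control line. Each line was harvested after 14 h of anti-IgM, an antibody against the IgM antigen receptor, at 2 ug/ml, or without stimulation. The groups were the miR-148a line with anti-IgM, the control line with anti-IgM, the miR-148a line unstimulated and the control line unstimulated, with 2 libraries of polyA-selected RNA each. All cultures, stimulated or not, grew in medium with serum and 2-mercaptoethanol; how either line was made, and whether it was a clone, is not given in the sources used here. The question put to the data is how the genes of zinc handling differed after engagement of the antigen receptor and between the lines.

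Metallothioneins are small cysteine-rich proteins that bind zinc, copper and cadmium and so buffer free zinc in the cell. Transcription of Mt1 and Mt2 is driven by Mtf1, a zinc-finger protein that senses zinc and binds short metal response elements, and the same factor drives Slc30a1, which exports zinc across the plasma membrane. SLC30 (ZnT) proteins move zinc out of the cytosol, to the outside or into organelles, and SLC39 (ZIP) proteins move it in; in mouse B cells Slc39a10 is known to be needed for development and for antigen receptor signalling.

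Totals ran from 5810227 to 18660373 counts per library, and 3 counts, the limit that a count of 0 allows, equal 0.166 to 0.502 CPM (counts scaled to library size with TMM factors); such limits cover counting error only. The cell type label was checked with its markers: 7 of 8 B lineage markers were measured and summed to 1932 to 2768 CPM, in all 4 groups (Ighm has no row). Macrophage and neutrophil markers summed to 2.23 to 5.91 CPM, with 3 of 6 at 0 in all libraries, T cell markers to 0.271 to 1.0045 CPM with 0 of 5 at 0 in all libraries, erythroid markers to 0.493 to 2.12 CPM and fibroblast markers to 0.0766 to 0.615 CPM. By group, the macrophage and neutrophil sum was 3.78 to 5.91 CPM in miR-148a cells with anti-IgM, 3.18 to 4.78 CPM in the control line with anti-IgM, 2.23 to 2.53 CPM in the unstimulated miR-148a line and 2.49 to 3.43 CPM in the unstimulated control line. The T cell sum was 0.461 to 0.658 CPM in miR-148a cells with anti-IgM, 0.783 to 1.0045 CPM in control cells with anti-IgM, 0.307 to 0.460 CPM in unstimulated miR-148a cells and 0.271 to 0.277 CPM in unstimulated control cells. With anti-IgM the T cell sum was higher in both lines, at levels near the limits given above for a count of 0. The macrophage and neutrophil sum was higher with anti-IgM in the miR-148a line, and its ranges overlapped between conditions in the control line. Mt2 was higher with anti-IgM in both lines, and a part of other cells in that was not tested.

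Mt2 and Mt1 are neighbours on mouse chromosome 8 (build GRCm38). The annotation places Mt2 at chr8:94172664-94173568 and Mt1 at chr8:94179082-94180327, both on the + strand and 5513 bases apart. Their upstream sequences are shown with that of Slc30a1 because these are the genes that Mtf1 is known to drive. Each run covers 250 bases before to 50 bases after the start annotated by RefSeq (GRCm38.p6), read 5′ to 3′ on the gene's strand, with matches to the core of the metal response element in capitals.
Mt2, chr8:94172368-94172667 (+ strand): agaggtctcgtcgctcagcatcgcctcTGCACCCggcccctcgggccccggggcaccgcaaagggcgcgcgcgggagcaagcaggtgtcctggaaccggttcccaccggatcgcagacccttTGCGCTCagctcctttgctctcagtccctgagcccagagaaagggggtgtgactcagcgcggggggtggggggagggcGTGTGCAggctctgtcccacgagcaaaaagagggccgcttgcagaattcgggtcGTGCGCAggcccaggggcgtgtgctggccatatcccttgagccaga
Mt1, chr8:94178839-94179138 (+ strand): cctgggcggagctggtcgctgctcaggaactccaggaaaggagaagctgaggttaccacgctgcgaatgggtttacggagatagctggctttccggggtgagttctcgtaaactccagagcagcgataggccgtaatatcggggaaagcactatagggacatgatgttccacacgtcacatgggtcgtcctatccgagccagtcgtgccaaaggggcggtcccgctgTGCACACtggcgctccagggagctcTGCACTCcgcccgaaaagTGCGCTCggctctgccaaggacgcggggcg
Slc30a1, chr1:191906531-191906830 (+ strand): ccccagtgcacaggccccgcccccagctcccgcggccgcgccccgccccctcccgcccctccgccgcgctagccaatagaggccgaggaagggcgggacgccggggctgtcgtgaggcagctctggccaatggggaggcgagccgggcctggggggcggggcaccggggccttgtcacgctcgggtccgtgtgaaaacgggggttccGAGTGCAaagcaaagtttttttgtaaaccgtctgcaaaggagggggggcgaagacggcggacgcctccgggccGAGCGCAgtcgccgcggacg

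The core was searched as TGCACNC and TGCGCNC on both strands, so a match on the other strand appears in the lines above as GNGTGCA or GNGCGCA. Mt2 held 4 separate matches and Mt1 held 3, at the positions drawn in the map of matches. Of 32851 promoters of the same length, 0.517% held at least as many as Mt2 and 1.97% at least as many as Mt1. Slc30a1 held 2, which 7.11% of promoters reached, and Slc30a5 held 1, which 25.7% reached. The median promoter held 0. The wider core TGCNCNC is less specific: 51% of promoters held at least 1 match and the median was 1, Mt2 held 6 (as many in 0.225% of promoters), Mt1 3 (7.1%), Slc30a1 2 (20.2%), and Mtf1 and the first start of Slc39a10 1 each. No match lay in the windows of Mtf1 and of both annotated starts of Slc39a10, with the main core, which says only that these letters are not in those windows. Of the 7 genes, 6 have a promoter entry; the window of Slc39a6 was not used here. Matches are descriptions of letters and not measurements of binding.

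**Figure D1:**
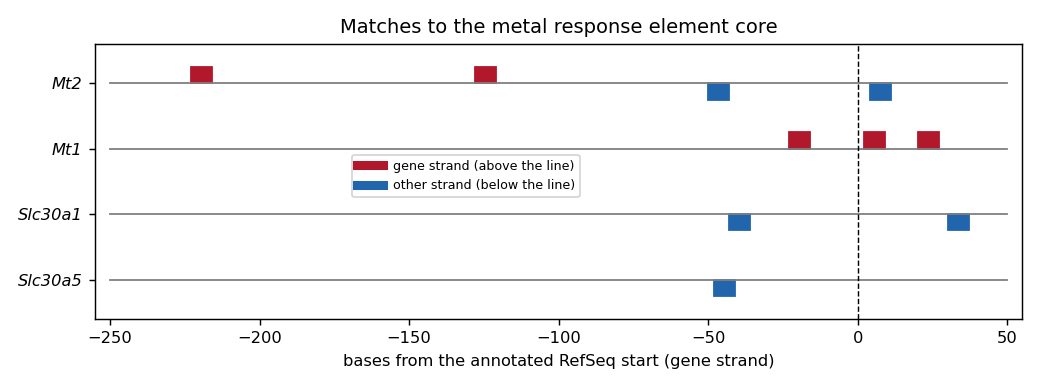
Positions of matches to the metal response element core along 300 bases around the annotated start, in bases on the x axis, for 4 genes, with red boxes for the gene strand and blue boxes for the other strand. Mt2 has 4 matches, Mt1 3, Slc30a1 2 and Slc30a5 1, and in Mt1 all 3 lie near the start.

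Mt2 is the gene of the set with a large anti-IgM response. In the miR-148a line it had 12.5 and 17.4 CPM with anti-IgM, against 1.69 and 1.84 CPM unstimulated. In the control line it had 29.8 and 19.9 CPM with anti-IgM, against 3.66 and 2.71 CPM unstimulated. Each of the 4 stimulated libraries was above each of the 4 unstimulated ones, with no overlap in either line. Lack of overlap is a weak criterion with 2 libraries per group. The share of all genes that show it was not counted, here or for the genes below. The fitted log2 fold change was 3.10 ± 0.30 (SE, n = 2 each), a fold of 8.55, in the miR-148a line and 2.91 ± 0.27, a fold of 7.54, in the control line. The counts behind these values were small in the unstimulated cells, 22 and 24 in the miR-148a line and 66 and 30 in the control line, against 76 and 189 and 178 and 229 with anti-IgM in the same order of lines. In bulk RNA, more cells with Mt2 transcripts and more Mt2 RNA per cell cannot be told apart. The median log2 fold change of all 11291 genes tested was 0.00 in the miR-148a line and 0.01 in the control line.

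Mt1, the other widely expressed metallothionein, was listed at 0 in all 8 libraries, stimulated libraries included. A count of 0 allows up to 0.166 to 0.502 CPM depending on the library, below the lowest Mt2 level of 1.69 CPM. The longest identical run between the annotated transcripts of both genes is 20 bases, and none of the 50-base stretches of Mt1 occurs in another annotated gene. Mt2 shares 45.5% of its 50-base stretches with Gm45774, a gene annotated on the opposite strand, which has no row in the table, so reads of that gene cannot be told apart from those of Mt2. How the reads of Mt1 were treated in counting is not given in the sources used here.

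**Figure D2:**
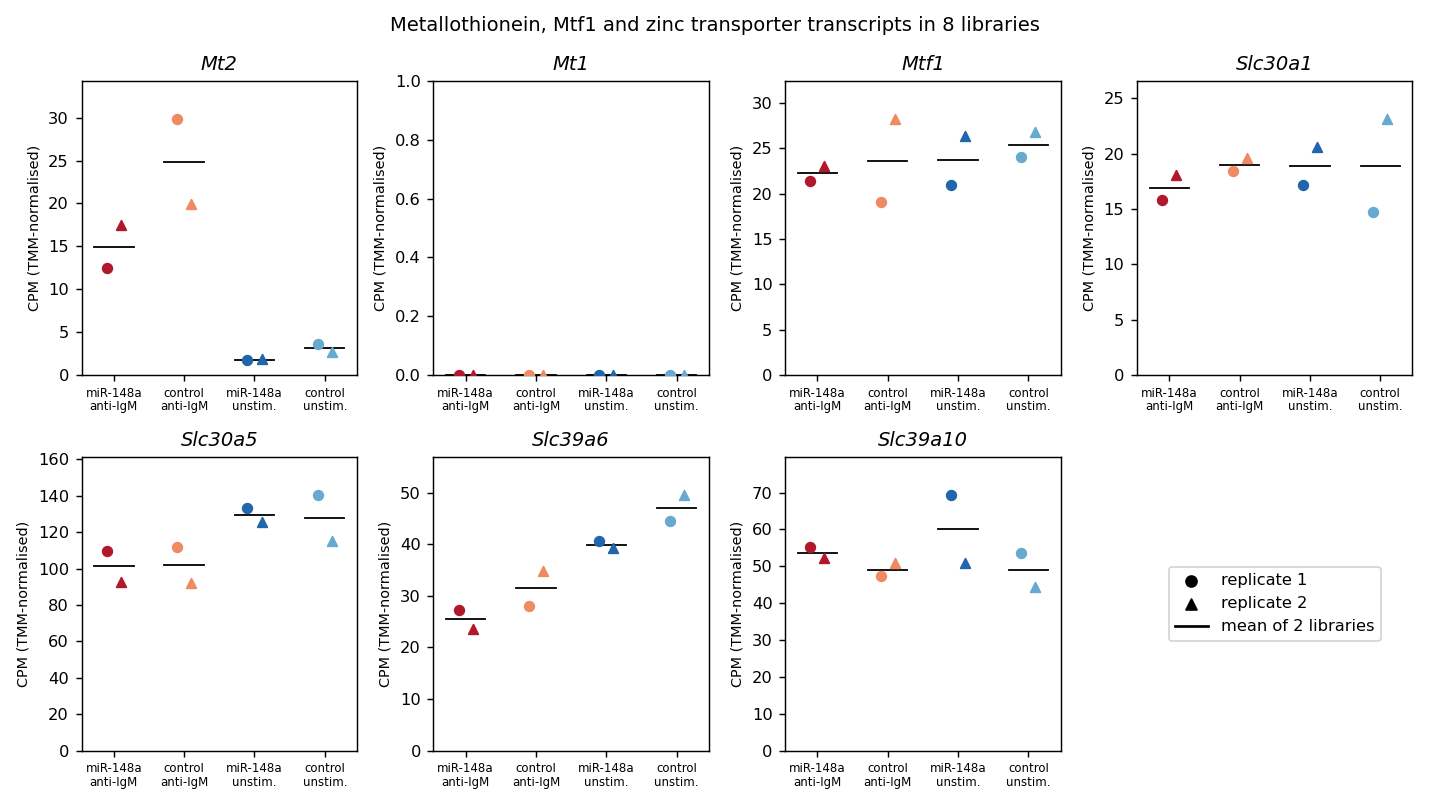
Normalised level of each gene in CPM (y axis, from 0) in the 4 groups (x axis), with a circle for replicate 1, a triangle for replicate 2 and a line for their mean. The 4 anti-IgM libraries of Mt2 lie between 12.5 and 29.8 CPM, above the 4 unstimulated ones, Mt1 is at 0 throughout, and the other genes span narrower ranges.

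The zinc sensor Mtf1 and the exporter Slc30a1 had overlapping levels in both conditions. Mtf1 had 21.4 and 23.1 CPM with anti-IgM and 21.0 and 26.4 CPM unstimulated in the miR-148a line, and 19.1 and 28.2 CPM with anti-IgM and 23.998 and 26.8 CPM unstimulated in the control line. The ranges overlapped in both lines, and the log2 fold change was -0.09 ± 0.19 (SE) in the miR-148a line and -0.07 ± 0.18 in the control line. Slc30a1 had 15.8 and 18.1 CPM with anti-IgM and 17.2 and 20.6 CPM unstimulated in the miR-148a line. In the control line it had 18.4 and 19.6 CPM with anti-IgM and 14.7 and 23.1 CPM unstimulated. Its log2 fold change was -0.15 ± 0.21 in the miR-148a line and 0.03 ± 0.21 in the control line, each within its error.

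Both of these genes overlap a gene on the opposite strand, and the deposited values show that reads were divided between them. The estimated counts of Mtf1 and of 1110065P20Rik added up to a whole number, within 0.01 counts, in 8 of 8 libraries, and Mtf1 was given 74.4% to 83.8% of the sum. Slc30a1 and 1700034H15Rik likewise added up to whole numbers in 8 of 8 libraries, with 96.6% to 99.1% given to Slc30a1. The sum of Mtf1 and 1110065P20Rik was 27.1 and 29.8 CPM with anti-IgM and 28.2 and 34.7 CPM unstimulated in the miR-148a line, and 25.4 and 33.7 CPM with anti-IgM and 31.1 and 35.0 CPM unstimulated in the control line. The summed levels overlapped between conditions in both lines, as those of Mtf1 alone did.

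Slc30a5, which with Slc30a6 loads zinc into the early secretory pathway, had lower levels in the stimulated libraries. It had 109.9 and 92.6 CPM with anti-IgM and 133.0 and 125.4 CPM unstimulated in the miR-148a line. In the control line it had 111.7 and 91.9 CPM with anti-IgM and 140.4 and 115.3 CPM unstimulated. Stimulated and unstimulated libraries did not overlap within either line, a weak criterion with 2 libraries per group. The log2 fold change was -0.36 ± 0.14 in the miR-148a line and -0.34 ± 0.14 in the control line.

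The importers Slc39a6 and Slc39a10 are related ZIP proteins known to form a complex at the plasma membrane. Slc39a6 had 27.3 and 23.6 CPM with anti-IgM and 40.6 and 39.2 CPM unstimulated in the miR-148a line. In the control line it had 28.1 and 34.8 CPM with anti-IgM and 44.6 and 49.5 CPM unstimulated. All 4 stimulated libraries were below all 4 unstimulated ones, with a log2 fold change of -0.66 ± 0.14 in the miR-148a line and -0.56 ± 0.13 in the control line. Slc39a10 had 55.3 and 52.2 CPM with anti-IgM and 69.3 and 50.8 CPM unstimulated in the miR-148a line, and 47.4 and 50.9 CPM with anti-IgM and 53.5 and 44.5 CPM unstimulated in the control line. Its conditions overlapped in both lines, and its log2 fold change was -0.16 ± 0.16 and 0.00 ± 0.16 in the miR-148a and control lines. The difference between the responses of the importers was not tested.

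By the edgeR quasi-likelihood test, at a Benjamini-Hochberg adjusted p under 0.05 over all genes tested, 2 of the 6 tested genes were called in each line, Mt2 higher and Slc39a6 lower. The same rule called 28.7% of all genes in the miR-148a line, 14.7% higher and 14.0% lower, and 17.0% in the control line, 9.60% higher and 7.45% lower. Because the set was chosen with these responses known, nothing is read from that count. With the sequencing run as a replicate block, Slc30a5 was also called lower in both lines, beside 46.1% of all genes in the miR-148a line and 34.8% in the control line. The Slc39a6 call changed when single libraries were left out: it was absent in the control line without anti-IgM replicate 1, where the log2 fold change was -0.43, or without unstimulated replicate 2, where it was -0.50, and in the miR-148a line without anti-IgM replicate 2, where it was -0.55.

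**Figure D3:**
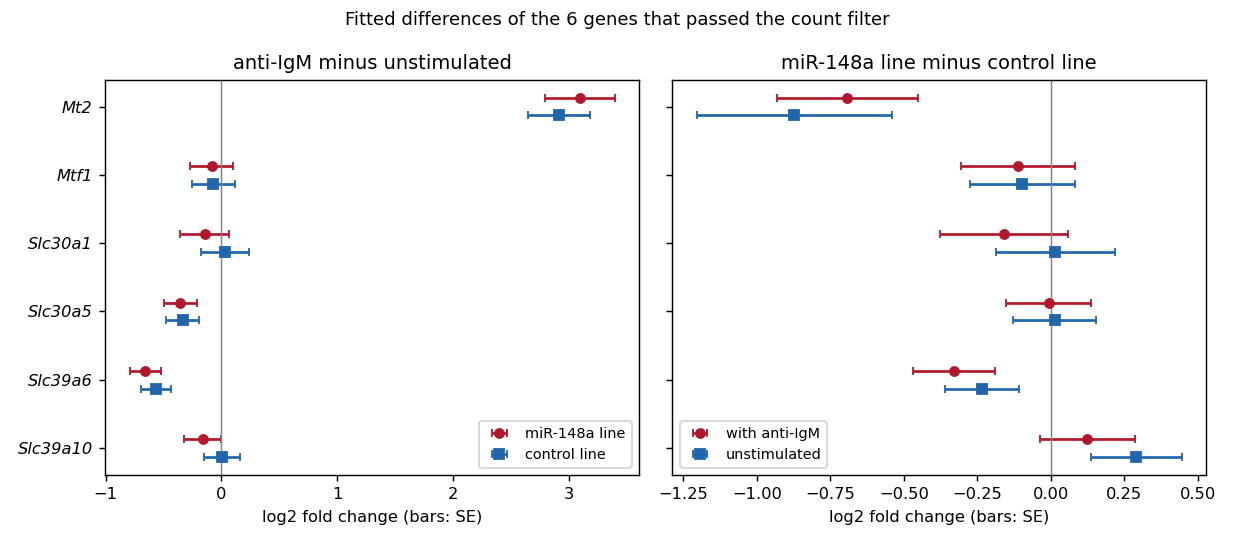
Fitted log2 fold changes (x axis) with their SE as bars for the 6 tested genes; the left panel shows anti-IgM minus unstimulated in the miR-148a line (red circles) and the control line (blue squares), and the right panel shows the miR-148a line minus the control line with anti-IgM (red circles) and unstimulated (blue squares). In the left panel Mt2 stands near 3 in both lines and Slc39a6 and Slc30a5 lie below 0; in the right panel Mt2 and Slc39a6 lie below 0 in both conditions.

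The line comparison, which the rule of the choice does not name, gave no call among the 6 tested genes under either condition. The largest difference was that of Mt2, which had 12.5 and 17.4 CPM in the miR-148a line and 29.8 and 19.9 CPM in the control line after anti-IgM. That is a log2 fold change of -0.69 ± 0.24 (SE, n = 2 each) with an adjusted p of 0.175 by edgeR, and the difference was -1.22 within the first sequencing run and -0.19 within the second. Unstimulated, Mt2 had 1.69 and 1.84 CPM in the miR-148a line and 3.66 and 2.71 CPM in the control line, a log2 fold change of -0.87 ± 0.33 with an adjusted p of 0.349. The ranges of the lines did not overlap in either condition, and within a run the miR-148a line had the lower Mt2 level in 4 of 4 comparisons. Neither trait was particular to Mt2: Slc39a6 also had no overlap in either condition and was lower within each run. Slc30a1 and Slc39a10 did not overlap after anti-IgM, and the share of all genes without overlap was not counted. With the replicate block the difference after anti-IgM was -0.64 with an adjusted p of 0.0437, which passes the threshold, while the unstimulated one had an adjusted p of 0.145 and does not.

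Slc39a6 was lower in the miR-148a line than in the control line by less than this, with a log2 fold change of -0.33 ± 0.14 after anti-IgM (edgeR adjusted p of 0.255) and -0.24 ± 0.13 unstimulated (0.553). Slc39a10 was above 0 in both conditions, at 0.12 ± 0.16 after anti-IgM (0.752) and 0.29 ± 0.15 unstimulated (0.548). Mtf1 differed by -0.11 ± 0.19 and -0.10 ± 0.18, Slc30a1 by -0.16 ± 0.22 and 0.02 ± 0.20, and Slc30a5 by -0.01 ± 0.15 and 0.01 ± 0.14, each after anti-IgM and unstimulated. Over all genes the rule called 2.52% after anti-IgM and 0.487% unstimulated, or 16.1% and 7.29% with the block.

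The anti-IgM response itself was compared between the lines with an interaction term. For Mt2 the response in the miR-148a line minus that in the control line was 0.18 ± 0.40 on the log2 scale, with an adjusted p of 0.9996 by edgeR, so the error allows differences in either direction. The other 5 tested genes had differences of -0.17 to -0.01, each smaller than its SE. Over all 11291 genes the interaction test called 0%, with 484 genes at an unadjusted p under 0.05, and 0.0974%, which is 11 genes, with the block.

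The seed of miR-148a-3p, bases 2 to 8 in capitals, is shown with the complementary sites found in the transcripts, since one line is named for this microRNA. The mature sequence comes from RefSeq (GRCm38.p6, chr6:51269829-51269850, - strand), and each site is printed with 8 bases on either side and the match in capitals.
mmu-miR-148a-3p: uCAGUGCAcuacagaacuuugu
Mtf1, site at base 471 of the 3′ region: tgtctggcTGCACTGtgtgtcac
Mtf1, site at base 589 of the 3′ region: ccatcattTGCACTGgggtcact
Slc39a10, site at base 964 of the 3′ region: atgcttacTGCACTGgtaccata

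The other 5 genes had 0 such sites after their coding sequence in GENCODE M21 transcripts. Of 20323 genes, 12.1% had at least 1 site, but the 3′ regions of these genes are long: of 967 genes with a 3′ region within 25% of the length of that of Mtf1, 9% had at least 2, and of 3020 genes like Slc39a10 in that respect, 21% had at least 1. Neither gene was called between the lines; the fitted difference of the miR-148a line from the control line was -0.11 after anti-IgM and -0.10 unstimulated for Mtf1, and 0.12 and 0.29 for Slc39a10. The level of the microRNA was not analysed here.

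Levels of different genes were compared per kb of annotated transcript, since a long transcript yields more reads. In the unstimulated cells Slc30a5 stood highest, at 40.6 ± 1.70 CPM per kb in the miR-148a line and 40.2 ± 5.57 in the control line (SD, n = 2 each). Slc39a6 and Slc39a10 followed, at 10.3 ± 0.256 and 10.9 ± 2.38 in the miR-148a line, where they did not differ beyond their spread, and at 12.1 ± 0.908 and 8.91 ± 1.16 in the control line, where their ranges did not overlap. Mt2, at 3.45 ± 0.220 and 6.23 ± 1.32, stood beside Slc30a1 (3.601 ± 0.464 and 3.61 ± 1.13) and Mtf1 (3.10 ± 0.498 and 3.33 ± 0.260) at the low end of the order, the miR-148a line being given before the control line. In the miR-148a line its range of 3.30 to 3.61 overlapped those of Slc30a1 and Mtf1, and in the control line its range of 5.30 to 7.16 lay above both. With anti-IgM, Mt2 was at 29.3 ± 6.84 CPM per kb in the miR-148a line and 48.6 ± 13.7 in the control line, next to Slc30a5 at 31.8 ± 3.85 and 32.0 ± 4.39. The ranges of Mt2 and Slc30a5 overlapped in the miR-148a line, and in the control line Mt2 was above Slc30a5, at 39.0 and 58.3 against 28.9 and 35.1 CPM per kb. Mtf1 had the lowest mean of the 6 detected genes in each group, but its range overlapped that of Slc30a1 in each group. Its level counts only the reads given to Mtf1, 74.4% to 83.8% of its sum with 1110065P20Rik. Its place below Slc30a1 therefore rests on how those reads were divided.

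**Figure D4:**
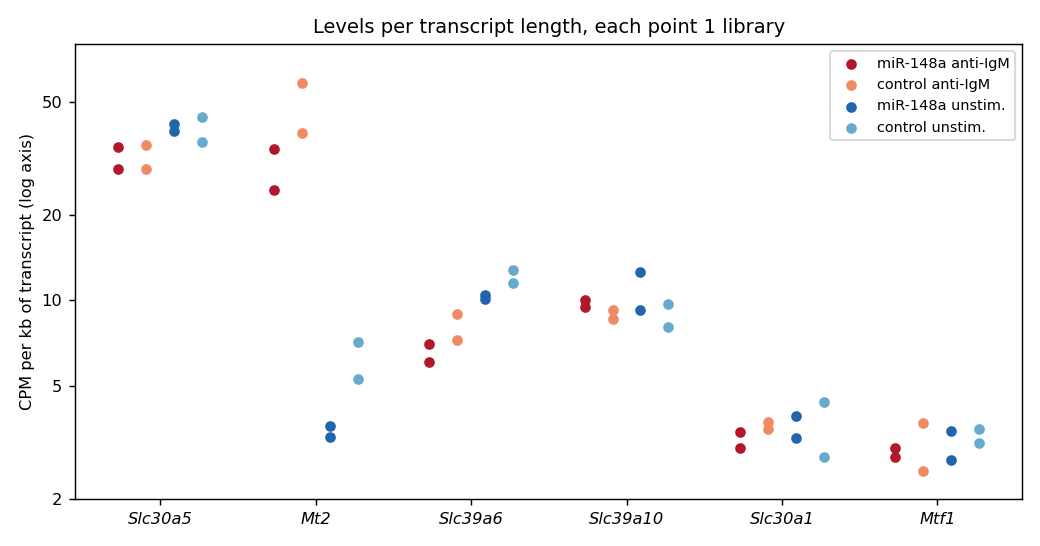
CPM per kb of transcript (y axis, log scale) for the 6 genes with counts (x axis), each point being 1 library, coloured by group. Mt2 in anti-IgM libraries, at 24.5 to 58.3, reaches the level of Slc30a5, and in unstimulated libraries, at 3.30 to 7.16, lies with the lower genes.

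Of 22 further metallothioneins and zinc transporters, 15 passed the filter. This list, too, was chosen with earlier results of these data known, so its calls are read only beside the share of all genes. In the miR-148a line 3 of the 15 rose with anti-IgM and 3 fell, where 14.7% of all genes rose and 14.0% fell, with a median log2 fold change of -0.02 beside 0.00 over all genes. In the control line 4 rose and 1 fell, where 9.60% of all genes rose and 7.45% fell, with a median of -0.10 beside 0.01. The largest fitted changes were in importers and in Mt3.

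Slc39a8, an importer of zinc and manganese, had 10.7 and 7.01 CPM with anti-IgM and 4.83 and 4.92 CPM unstimulated in the miR-148a line, and 20.4 and 19.4 CPM with anti-IgM and 6.04 and 4.60 CPM unstimulated in the control line. Its log2 fold change was 0.82 ± 0.24 in the miR-148a line (edgeR adjusted p of 0.0305) and 1.88 ± 0.22 in the control line (0.00164). The call in the miR-148a line was lost in 4 of 16 alternatives: with only the groups compared (0.0556), without unstimulated replicate 1 (0.134) or 2 (0.101), and without anti-IgM replicate 1 (0.145), where the log2 fold change was 0.52. After anti-IgM it was lower in the miR-148a line than in the control line, by -1.20 ± 0.22 with an edgeR adjusted p of 0.0330. It was the only call between lines in this list, 1 of 15, where 2.52% of all genes were called. That call was lost in 6 of 16 alternatives, among them the fit with only the groups compared (edgeR adjusted p of 0.0807). The others left out miR-148a unstimulated replicate 1 or 2, control anti-IgM replicate 1 or 2, or miR-148a anti-IgM replicate 2. The interaction, -1.06 ± 0.32, had an edgeR adjusted p of 0.9996, or 0.126 with the block. With the block, Slc30a2, Slc39a7 and Slc39a14 were also lower in the miR-148a line after anti-IgM. That made 4 of the 15 lower, where the block called 16.1% of all genes. Unstimulated, Slc30a4, which fills vesicles with zinc, was called higher in the miR-148a line with the block, by 0.79 (edgeR adjusted p of 0.00427). Without the block its difference was 0.78 with an edgeR adjusted p of 0.154, which is no call. The block called 7.29% of all genes there.

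Slc39a4, best known as the importer that takes up dietary zinc, had 32.7 and 32.6 CPM with anti-IgM and 17.3 and 14.8 CPM unstimulated in the miR-148a line. In the control line it had 36.3 and 43.3 CPM with anti-IgM and 19.8 and 21.5 CPM unstimulated. It rose by 1.02 ± 0.13 on the log2 scale in the miR-148a line (edgeR adjusted p of 0.00108) and by 0.96 ± 0.13 in the control line (0.00251). Slc39a14, which imports zinc, iron and manganese, fell. It had 37.3 and 28.9 CPM with anti-IgM and 73.8 and 73.1 CPM unstimulated in the miR-148a line, a log2 fold change of -1.16 ± 0.15 (0.00110), and 41.0 and 48.5 CPM with anti-IgM and 71.9 and 86.1 CPM unstimulated in the control line, a log2 fold change of -0.81 ± 0.15 (0.00845). The call of Slc39a14 in the control line was lost without anti-IgM replicate 1 (adjusted p of 0.0605) or unstimulated replicate 2 (0.0550).

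Mt3, a metallothionein best known from brain that lies 18517 bases before Mt2, was near the limit of counting. It had 1 and 5 counts with anti-IgM and 0 and 1 unstimulated in the miR-148a line, and 9 and 11 counts with anti-IgM and 3 and 1 unstimulated in the control line. The ratio of its summed and depth-scaled counts, anti-IgM over unstimulated, was 9.24 in the miR-148a line, with a 95% counting interval of 1.12 to 425.2, and 8.33 in the control line, with an interval of 2.79 to 33.5. The test called it in the control line (edgeR adjusted p of 0.0278), a call that was lost without any 1 of the 4 control libraries. Mt4, Slc30a8, Slc30a10 and Slc39a12 had 0 counts in all libraries. The remaining calls were smaller than 1 on the log2 scale: Slc39a1 higher in both lines, and Slc30a2 and Slc39a7 lower in the miR-148a line. Across the alternatives of normalisation, filter, test and libraries, the calls of Slc39a4 in both lines, of Slc39a8 in the control line and of Slc39a14 in the miR-148a line were lost in 0 of 16; that of Slc39a7 was lost in 11, that of Slc39a1 in the control line in 9, and that of Slc30a2 in 6.

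**Figure D5:**
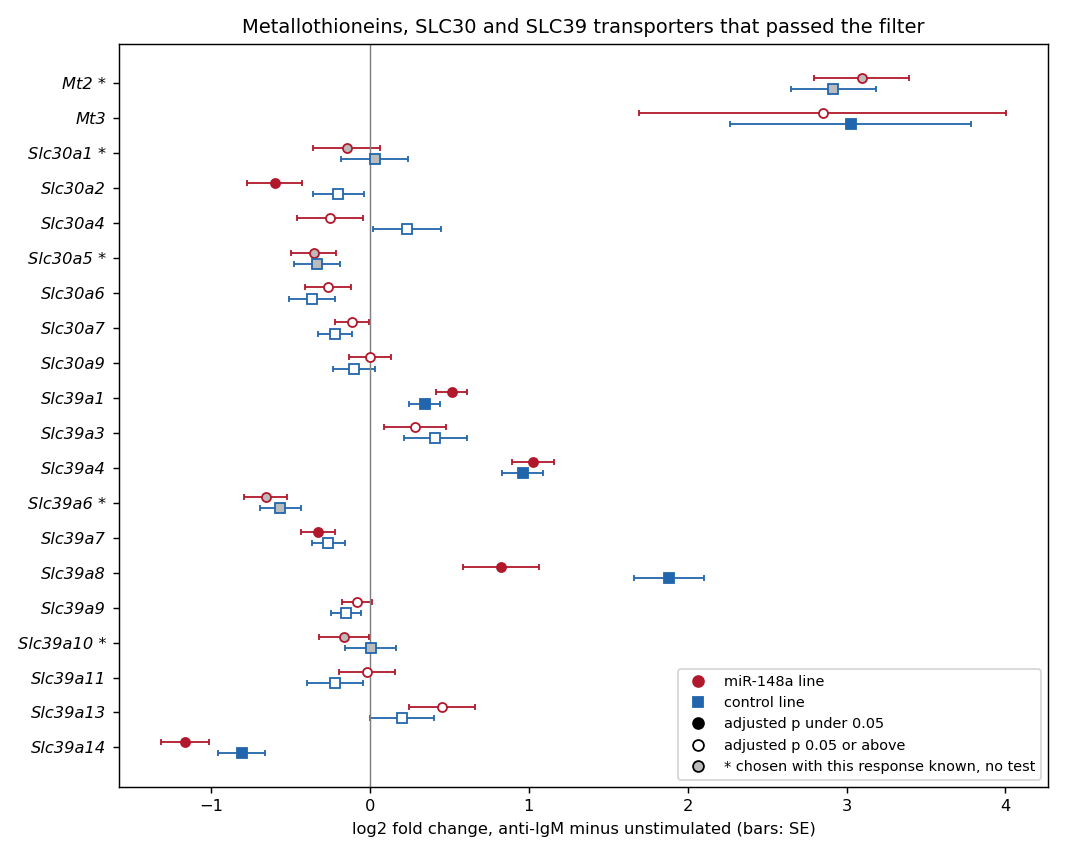
Log2 fold change of anti-IgM minus unstimulated (x axis, bars are SE) for the metallothioneins and SLC30 and SLC39 transporters that passed the filter, with red circles for the miR-148a line and blue squares for the control line; filled symbols mark an adjusted p under 0.05 and grey symbols the genes chosen with this response known. Mt2 and Mt3 lie near 3, Slc39a8 and Slc39a4 above 0 and Slc39a14 and Slc39a6 below 0 in both lines.

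Other genes tied to metals or redox balance were counted for context, in lists also chosen with earlier results of these data known. Of 6 other genes reported to depend on Mtf1 in mice, 4 passed the filter and 1 rose in each line, where 14.7% of all genes rose in the miR-148a line and 9.60% in the control line: Ndrg1, a stress-responsive protein, by 2.16 ± 0.51 in the miR-148a line (edgeR adjusted p of 0.0127) and by 2.48 ± 0.54 in the control line (0.0171), on the log2 scale. Ndrg1 was low, with 5.43 and 4.98 CPM with anti-IgM and 0.613 and 1.69 CPM unstimulated in the miR-148a line, and 5.69 and 2.70 CPM with anti-IgM and 0.776 and 0.632 CPM unstimulated in the control line. Of 10 genes of oxidative and metal stress, 9 passed the filter; 2 rose and 0 fell in the miR-148a line, where 28.7% of all genes were called, and 3 rose and 0 fell in the control line, where 17.0% were called, with median log2 fold changes of 0.18 and 0.26. Nqo1, a quinone reductase, rose by 2.21 ± 0.46 (0.00727) in the miR-148a line and by 2.20 ± 0.45 (0.0128) in the control line, and Sqstm1, an autophagy receptor, by 0.48 ± 0.09 (0.00545) and 0.56 ± 0.09 (0.00616) in the same order. Gsr, glutathione reductase, was called in the control line, at 0.53 ± 0.15 (0.0415). Txnrd1, thioredoxin reductase, was lower in the miR-148a line than in the control line after anti-IgM, by -0.56 ± 0.09 (0.0258). Of 10 genes of copper handling, 9 passed the filter; 2 rose in the miR-148a line, beside 28.7% of all genes called, Steap3, a metal reductase, by 0.86 ± 0.19 (0.0107) and Atox1, a copper chaperone, by 0.33 ± 0.11 (0.0443), and 0 were called in the control line, beside 17.0% of all genes. With the replicate block, which called 46.1% and 34.8% of all genes in the miR-148a and control lines, 3 and 2 of the 4 genes tied to Mtf1 rose, 4 and 5 of the 9 stress genes rose, and 4 and 2 of the 9 copper genes rose, while 1 copper gene fell in the miR-148a line. Between lines after anti-IgM the block called 1 of the genes tied to Mtf1 higher and 1 lower, 2 stress genes lower, and 1 copper gene higher and 1 lower, beside 16.1% of all genes. Of 16 alternatives, the call of Ndrg1 was lost in 2 in the miR-148a line and 3 in the control line, Nqo1 in 1 and 2, Sqstm1 in 1 and 1, Gsr in 6, Txnrd1 in 6, Steap3 in 2 and Atox1 in 11. Without control anti-IgM replicate 1, the log2 fold change in the control line was 0.30 for Gsr and 1.29 for Nqo1.

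The genes whose log2 CPM followed that of Mt2 most closely over the 8 libraries, among 9915 genes compared, were Ptpn22 (Pearson's r of 0.993), Slamf6 (0.992), Pdlim2 (0.991), Rrad (0.989) and Il12rb1 (0.987). Ptpn22 is a phosphatase of lymphocyte receptor signalling, Slamf6 a surface receptor, Pdlim2 an adaptor protein, Rrad a small GTPase and Il12rb1 a cytokine receptor chain. These libraries fall into stimulated and unstimulated ones, so a high value largely repeats that split, and the genes share library and depth with Mt2. Slamf6 had 27.1 and 29.5 CPM in miR-148a cells with anti-IgM, 38.3 and 32.0 CPM in the control line with anti-IgM, 6.13 and 6.38 CPM in the unstimulated miR-148a line and 12.1 and 8.48 CPM in the unstimulated control line. Its 8 libraries stood in the same order as those of Mt2.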

How the data were processed

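PolyA-selected RNA of 8 libraries was sequenced from a directional kit, per the labels' protocols. The authors deposited 1 table of expected counts (estimated counts that need not be whole) per gene symbol; 7.58% to 11.1% of a library's values were not whole. The submitters' processing notes name CASAVA 1.8, cutadapt, TopHat2 2.0.13, Bowtie2, Partek 6.15.0730, edgeR and the builds mm10 and GRCm38, without roles; the strand setting is not given in the sources used here. Rows whose names had become dates (27 rows, 0.213% to 0.235% of counts) were left out, and counts were rounded.

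All 8 libraries were fitted with 4 group means in edgeR 4.0.16 (R 4.3.3, limma 3.58.1). The settings were TMM factors, filterByExpr, quasi-likelihood F test, Benjamini-Hochberg adjustment over 11291 genes, threshold 0.05 and 4 residual degrees of freedom. The procedure was also run on simulated counts, drawn separately for each library without a shared run effect. That run cannot give its error rate for libraries that pair by run, as these do. The SE is the size of the log2 fold change divided by the square root of F, and differences within a run use log2(CPM + 0.5). The alternatives were DESeq2 1.42.0, other normalisations and filters, fewer groups, each library left out, Mt1 and Mt2 summed, and a replicate block. Because Mt1 had 0 counts in all 8 libraries, the fit of the sum repeats the main fit and could change no call. It is nevertheless counted among the 16 alternatives. Replicate numbers follow the sequencing run in the labels, and same-numbered libraries deviated together in all 6 pairs of groups (r across genes 0.495 to 0.569), so the numbers pair the libraries. Nothing says that replicates were separate cultures, so p-values measure the spread between these libraries; replicates differed by more than sampling noise (mean chi-square per gene 9.78 to 14.0).

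The genes named are all 7 members, up to 3 called genes with the largest change per list and comparison, and the 5 genes most like Mt2 (mean log2 CPM of at least 1, members and provisional names left out); Slc39a1, Slc39a7, Slc30a4 and the genes at 0 were named after their values were seen. Members and lists were chosen with earlier results of these data known. Transcript lengths are those of GENCODE M21 CCDS transcripts (GRCm38), and figures were drawn with Python 3.11.15.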

Additional observations from a re-analysis of the deposited data

How the results depend on the processing

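No called value among the members and the listed genes named reversed under any alternative run. Among the member calls for the anti-IgM response, that of Slc39a6 was lost in either line when certain single libraries were left out. With the replicate block 3 members were called in either line, beside 46.1% of all genes in the miR-148a line and 34.8% in the control line. Between lines after anti-IgM the replicate block called 1 member, Mt2; beyond this and the added call of Slc30a5 in both responses it changed no member call. Calls over all genes ranged from 1481 to 5205 (3238 reported) in the miR-148a line and 540 to 3929 (1925 reported) in the control line, from 0 to 1822 (284) and 0 to 823 (55) between lines after anti-IgM and unstimulated, and from 0 to 11 (0) for the interaction; DESeq2 is among these. With the block the counts were 5205, 3929, 1822, 823 and 11 in that order. Calls among the 15 further zinc genes ranged from 2 to 6 in the miR-148a line, 2 to 6 in the control line, 0 to 4 between lines after anti-IgM and 0 to 1 unstimulated. The cause of these changes was not tested beyond the smaller number of libraries. By Spearman's rho 2 of the 5 genes most like Mt2 stayed among the first 5. With the wider core TGCNCNC, Mtf1 and the first start of Slc39a10 each held 1 match, as at least 1 was found in 51% of promoters. The order of levels per kb was the same with library totals only.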
